A study of Homo sapiens with 24 samples.

Results

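WNT proteins are secreted ligands that bind Frizzled (FZD) receptors together with the coreceptors LRP5 and LRP6, which spares beta-catenin from degradation and lets it act with the DNA-binding factors of the TCF and LEF family. Secreted Frizzled-related proteins, Dickkopf (DKK) proteins, WIF1 and NOTUM hold the signal down outside the cell, R-spondins and their LGR receptors strengthen it, and targets such as AXIN2, NKD1, RNF43 and ZNRF3 feed back on it. In pluripotent cells and early embryos the pathway is known for its part in forming mesendoderm, the common precursor of mesoderm and endoderm. Described here are 47 genes of this pathway, chosen by name from those roles: 12 ligands, 12 receptors and coreceptors, 10 secreted inhibitors, 5 genes of the R-spondin branch, and 8 feedback genes, targets and transcription factors. Of these, 46 had a transcript cluster in the gene table given with the arrays, each a single cluster, and TCF7 had no row there. They stand among 23781 clusters with a single gene symbol that were tested, of 67528 transcript clusters in all. FZD8, whose cluster also carries MIR4683, was read from a fit of all clusters.

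H9, a human embryonic stem cell (hESC) line, was grown without feeder cells on Matrigel in mTeSR1 and infected with lentivirus. The vector carried a non-silencing shRNA (shNS) or, in the knockdown arm, one against RUNX1 (shRUNX1), a transcription factor best known from blood cell formation, with puromycin selection in both arms. Each arm was profiled on arrays when undifferentiated (0 hr) and after 8, 24 and 72 hr in Knockout DMEM with 20% fetal bovine serum, a medium used to start mesendoderm differentiation, with 3 arrays in each of the 8 groups and 24 in all. Both arms therefore carried the vector and the selection, knockdown rested on 1 shRNA clone in 1 cell line, and uninfected cells were not used here. The description labels give shNS replicates 1 to 3 the experiment letters A, B and C and shRUNX1 replicates 1 to 3 the letters C, D and E at every time, and the sources do not say what the letters stand for. The study's text describes the replicates as independent experiments.

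Array medians ran from 6.19 to 6.33 on the log2 scale and arrays of a group correlated at 0.987 to 0.997. The targeted gene RUNX1, on a cluster shared with LOC100506403, averaged 5.92 ± 0.04, 6.47 ± 0.18, 6.63 ± 0.09 and 6.42 ± 0.24 (SD, n = 3) at 0, 8, 24 and 72 hr in shNS cells, against 5.88 ± 0.09, 6.29 ± 0.10, 6.27 ± 0.19 and 6.13 ± 0.28 in shRUNX1 cells. The shRUNX1 mean was the lower at all 4 times, by -0.04, -0.17, -0.37 and -0.29 in order, and no difference was called (limma adjusted p = 0.936, 0.768, 0.264 and 0.348). Of the marker lists, mesenchymal genes such as VIM, TNC and COL1A1 rose in both arms, 8 of 8 in shNS cells and 7 of 8 in shRUNX1 cells at 72 hr. Pluripotency markers were called lower in 3 of 8 (SOX2, DPPA4 and DNMT3B) and amnion and trophoblast markers higher in 4 of 7 in shNS cells at 72 hr. Of these 8 pluripotency markers 5 differences were negative and 3 positive. The 3 were POU5F1, NANOG and PRDM14, at 11.6, 11.6 and 9.6 at 0 hr and 12.1, 11.9 and 9.8 at 72 hr. In shRUNX1 cells at 72 hr DPPA4 alone was called lower and PRDM14 alone higher. Over all tested clusters 7.3% were called higher and 7.77% lower in shNS cells at 72 hr. In shRUNX1 cells 3.76% were called higher and 3.76% lower. Of 8 mesendoderm markers, GATA6 alone was called in shNS cells, with a mean of 5.69 at 0 hr and 7.74 at 24 hr. TBXT stayed between 5.22 and 5.31 and MIXL1 between 5.43 and 5.88 in the shNS group means, all under the median of the tested values, so no rise of these defining markers was seen in shNS cells. In shRUNX1 cells MIXL1 averaged 5.81 ± 0.37 at 0 hr, 6.65 ± 1.29 at 24 hr and 6.24 ± 1.06 at 72 hr (SD), and was not called. Where RNA of many cells is pooled, as on every array here, fewer cells of a type and less RNA per cell cannot be told apart.

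Upstream sequence is shown for members on which later results turn and which have a RefSeq entry in the table used (FZD7 and AXIN2 had none there): SP5, a zinc-finger factor and known WNT target, DKK1, an inhibitor that is itself a WNT target, and TCF7L2, a DNA-binding partner of beta-catenin. The letters searched for were the TCF and LEF word CTTTG followed by a pair of bases that are each A or T, on both strands and shown in capitals, in the 250 bases before the RefSeq start on GRCh38.p14. Neither it nor the RUNX word used further on contains the other, though matches can share letters at their ends.
SP5, chr2:170715087-170715336, plus strand: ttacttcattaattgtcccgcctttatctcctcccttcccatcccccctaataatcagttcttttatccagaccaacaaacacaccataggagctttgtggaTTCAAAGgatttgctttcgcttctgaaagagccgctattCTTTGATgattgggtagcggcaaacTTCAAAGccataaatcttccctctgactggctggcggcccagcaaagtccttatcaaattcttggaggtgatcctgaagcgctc
DKK1, chr10:52314031-52314280, plus strand: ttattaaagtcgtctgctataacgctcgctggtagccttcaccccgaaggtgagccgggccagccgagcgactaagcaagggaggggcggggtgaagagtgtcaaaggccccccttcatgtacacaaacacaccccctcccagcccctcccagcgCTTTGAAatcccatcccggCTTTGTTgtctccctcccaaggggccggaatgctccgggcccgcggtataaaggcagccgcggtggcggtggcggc
TCF7L2, chr10:112949997-112950246, plus strand: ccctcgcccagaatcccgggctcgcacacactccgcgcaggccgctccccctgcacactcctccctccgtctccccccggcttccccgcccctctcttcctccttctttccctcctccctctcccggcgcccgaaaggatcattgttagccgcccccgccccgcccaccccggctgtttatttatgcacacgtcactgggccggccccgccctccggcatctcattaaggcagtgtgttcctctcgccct

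The SP5 stretch held 3 matches, beginning 148, 109 and 84 bases before the start, the DKK1 stretch held 2, at 95 and 76 bases, and the TCF7L2 stretch held 0. Of the 29 listed genes with an entry among the RefSeq promoters, SP5 and DKK1 were the 2 with a match (6.9%), against 12.1% of 27305 promoters. The RUNX word TGTGGT, or that word with C as the third base, on both strands, was found before 8 of the 29 (27.6%), namely TCF7L1, WNT5A, LEF1, TCF7, RSPO3, FZD8, LGR4 and RNF43, against 16.1% of all promoters. Such matches describe letters in a short window and are no evidence of binding.

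Over the time course of shNS cells, the WNT genes that moved were mostly receptors and secreted inhibitors, and most of them fell. A gene was called where limma's Benjamini-Hochberg adjusted p over all tested clusters was under 0.05 and the change was over 1.5-fold. At 8 hr 6 of 46 genes were called (13%, against 8.41% of all tested clusters), 1 higher (4.68% of all) and 5 lower (3.73%) than at 0 hr. At 24 hr 16 were called (34.8%, against 15.7%), 5 higher (7.72% of all) and 11 lower (7.94%). At 72 hr 14 were called (30.4%, against 15.1%), 3 higher (7.3% of all) and 11 lower (7.77%). From 8 to 24 hr 5 were called (10.9%, against 2.78%). Between 24 and 72 hr limma called 0 (against 1.17% of all clusters), with 8 at an unadjusted p under 0.05 and 0 by the test the methods name, an analysis of variance, run here on the compared arrays alone. The share of all clusters at that unadjusted p was not computed. Counts rested on single replicates in places. The 8 hr count was 1 without shNS replicate 1 or 2, and the 72 hr count 8 without replicate 1 and 9 without replicate 2. From 8 to 24 hr the count was 1 without shNS replicate 1 or 2 or shRUNX1 replicate 3, 2 without shNS replicate 3 and 3 without shRUNX1 replicate 1. From 24 to 72 hr it was 3 without shNS replicate 3. With title number or experiment letter as a block the count was 1 and 4 there, and 9 and 10 at 8 hr.

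In shRUNX1 cells receptors and Frizzled-related inhibitors fell as well, and at 72 hr WNT5A, DKK1, AXIN2, TCF7L2, SP5 and RNF43 rose. These 6 were not called in shNS cells at that time, where WNT5A was at 1.494-fold and was called under 4 of 13 alternative settings and RNF43 under 1 (without shNS replicate 2, adjusted p = 0.0477). Calls numbered 6 at 8 hr (13%, against 7.01% of all tested clusters), 11 at 24 hr (23.9%, against 10.9%) and 12 at 72 hr (26.1%, against 7.52%). Higher calls made up 1 of 6, 2 of 11 and 7 of 12. Over all tested clusters they made up 913 of 1667 calls, 1248 of 2604 and 893 of 1788 at the same times. Of all tested clusters, 3.84%, 5.25% and 3.76% were called higher and 3.17%, 5.7% and 3.76% lower. Without shRUNX1 replicate 3 the calls of WNT genes numbered 3, 4 and 3, and without replicate 1 the 8 hr count was 3. Genes called in the same direction in both arms were 5 at 8 hr (83.3% of either arm's calls), 10 at 24 hr (62.5% of the shNS calls and 90.9% of the shRUNX1 calls) and 6 at 72 hr (42.9% and 50%). Over all tested clusters the shared share was 59.4% of the shNS calls and 71.2% of the shRUNX1 calls at 8 hr, 57.9% and 82.8% at 24 hr, and 39.5% and 79.2% at 72 hr. Each arm was tested against its own 0 hr arrays, so a call in 1 arm alone is no test of a difference between arms. Over all 15 comparisons, of time, of arm and of the change of the arm difference, 23 of the 46 genes were called at least once. For single genes below, the settings named as ending a call are mostly replicates left out. Of the 72 calls, the methods' analysis of variance ended 50, a fit of the compared groups alone 12 and quantile normalization 4.

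**Figure D1:**
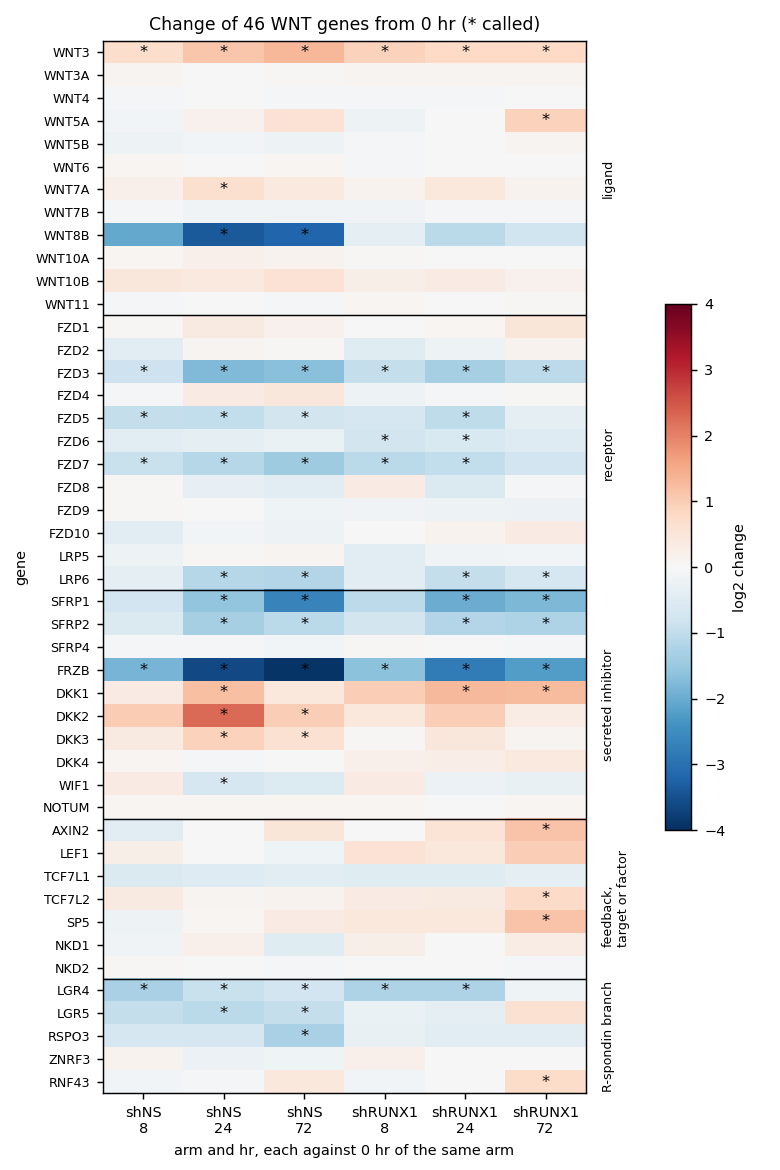
Change of the 46 WNT genes from 0 hr, by arm and time. Rows are genes grouped by role, columns are 8, 24 and 72 hr in shNS and then shRUNX1 cells, colour is the log2 change in group means of 3 arrays (blue lower, red higher) and a star marks a call. FRZB and WNT8B are the darkest blue rows in shNS cells, and starred feedback genes (AXIN2, TCF7L2, SP5) appear only in the last column.

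Among the 12 ligands, WNT3 rose early and stayed up, and WNT8B fell steeply in shNS cells. WNT3, the ligand that the mouse embryo needs to form the primitive streak, read 5.95, 5.95 and 5.90 on the 3 shNS arrays at 0 hr. It read 6.57, 6.72 and 6.62 at 8 hr, 6.97, 7.46 and 6.69 at 24 hr, and 7.45, 7.44 and 6.92 at 72 hr. Every later array lay above every 0 hr array, and the log2 change was 0.70 ± 0.20 (SE), 1.11 ± 0.20 and 1.33 ± 0.20 (limma adjusted p = 0.0174, 0.000215 and 3.66e-05). In shRUNX1 cells WNT3 went from 5.87, 5.87 and 5.79 to 6.74, 6.66 and 6.90 at 8 hr, with a change of 0.92 ± 0.20 (adjusted p = 0.00305). It then read 6.39, 6.66 and 6.84 at 24 hr and 6.26, 7.17 and 6.53 at 72 hr, changes of 0.78 and 0.81 (adjusted p = 0.00663 and 0.00772). The shRUNX1 means stayed between 6.63 and 6.77 from 8 hr on, while 2 of the 3 shNS arrays at 72 hr were higher than any shRUNX1 array. That difference, -0.62 ± 0.20 for shRUNX1 minus shNS, missed the threshold (adjusted p = 0.0833). The 8 hr call ended without shNS replicate 1 or 2 or, in the other arm, without shRUNX1 replicate 3, whose omission also ended the 24 and 72 hr calls there, and the 72 hr call in shRUNX1 cells ended without its replicate 2 as well.

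WNT8B, a ligand known from the developing forebrain, read 10.60, 10.66 and 8.51 in shNS cells at 0 hr and 7.74, 8.45 and 7.41 at 8 hr. At 24 hr it was at 6.99, 6.51 and 6.23, and at 72 hr at 6.74, 5.78 and 7.71. All arrays at 24 and 72 hr lay below all 0 hr arrays, although replicate 3 started well under the other 2. The change was -3.34 ± 0.75 at 24 hr, a 10.15-fold fall (adjusted p = 0.00168), and -3.18 ± 0.75 at 72 hr (adjusted p = 0.00273). Without shNS replicate 3 the 72 hr change was -4.37, and without replicate 1 or 2 that call ended, with -2.33 as the smallest change. In shRUNX1 cells WNT8B read 9.36, 7.92 and 8.52 at 0 hr and 9.31, 6.19 and 7.89 at 72 hr, and replicate 2 was the lowest of the 3 at every time. Its change there was -1.06 at 24 hr and -0.81 at 72 hr (adjusted p = 0.357 and 0.523). How the change differed between arms, 2.28 ± 1.05 at 24 hr and 2.37 ± 1.05 at 72 hr, did not pass the test (adjusted p = 0.665 and 0.318).

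WNT7A rose in shNS cells at 24 hr, from 4.82, 4.72 and 4.79 to 5.37, 5.31 and 5.58, a change of 0.64 ± 0.13 with no overlap of arrays (adjusted p = 0.00093), and without shNS replicate 3 it no longer reached 1.5-fold. Its signal was low, with group means of 4.69 to 5.42, all under 6.25, the median over all tested clusters. WNT5A, a ligand known mostly for signalling without beta-catenin, reached 6.91, 6.60 and 6.97 in shRUNX1 cells at 72 hr from 6.10, 5.77 and 5.86 at 0 hr (0.91 ± 0.12, adjusted p = 5.95e-05). In shNS cells the same gene moved to 6.72, 6.56 and 6.33 from 5.94, 6.11 and 5.82, which passed on p but not on size (1.494-fold, adjusted p = 0.00109). WNT10B was similar in shNS cells at 72 hr, with 0.56 on the log2 scale and an adjusted p of 0.00112. The other ligands, WNT3A, WNT4, WNT5B, WNT6, WNT7B, WNT10A and WNT11, were never called. Together with WNT10B their group means spanned 4.09 to 6.82, and 5 of these 8 stayed in every group below 6.25, the median over all tested clusters.

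**Figure D2:**
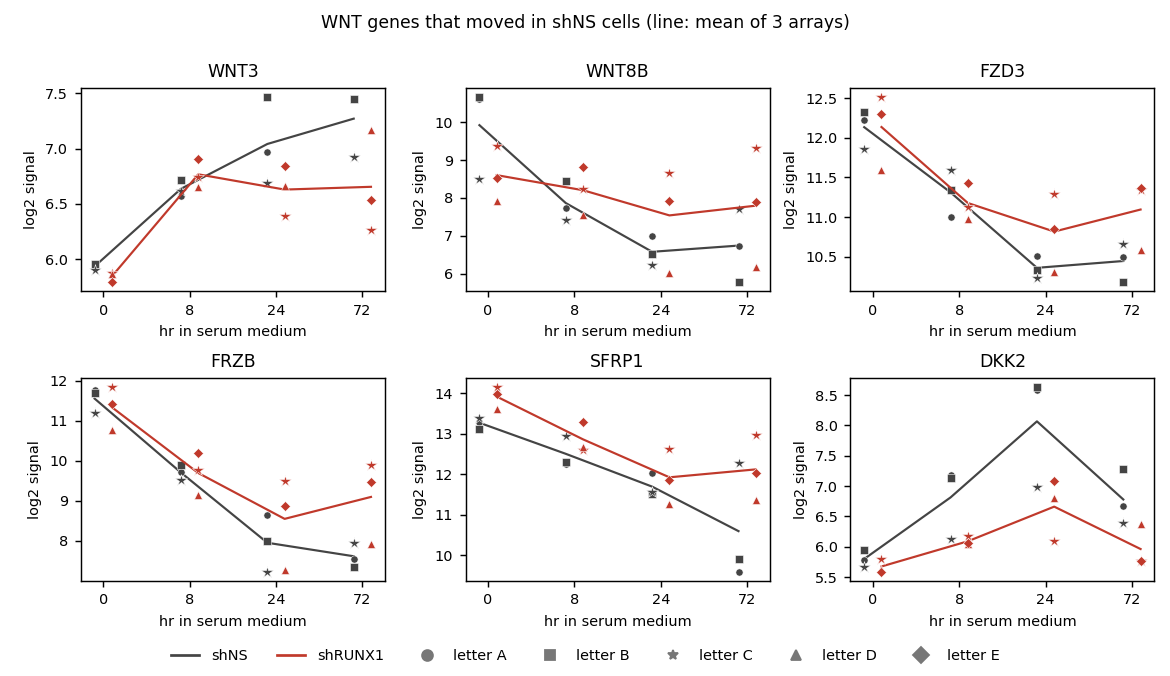
Signal of WNT3, WNT8B, FZD3, FRZB, SFRP1 and DKK2 on every array. The x axis is hr in serum medium, the y axis log2 signal with a scale of its own in each panel, lines join means of 3 arrays and marker shapes give the experiment letters. WNT3 and DKK2 climb from 0 hr, WNT8B, FZD3, FRZB and SFRP1 drop, and at 72 hr letter C stands at 12.27 for SFRP1 where the other shNS arrays are at 9.60 and 9.91.

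Among the 12 receptors, all calls over time were downward. In shNS cells 3 were called at 8 hr (FZD3, FZD5 and FZD7) and 4 at both 24 and 72 hr, with the coreceptor LRP6 added. FZD3, a Frizzled known for axon guidance and planar polarity, read 12.22, 12.32 and 11.85 at 0 hr, 11.01, 11.34 and 11.59 at 8 hr, 10.51, 10.34 and 10.24 at 24 hr, and 10.50, 10.18 and 10.66 at 72 hr. The arrays at each later time lay below those at 0 hr, and the 24 hr arrays below the 8 hr arrays. The change was -0.82 ± 0.26 at 8 hr (adjusted p = 0.0353, a call lost without shNS replicate 1 or 2 or shRUNX1 replicate 3), -1.77 at 24 hr, 3.417-fold, and -1.69 ± 0.26 at 72 hr (adjusted p = 3.16e-05 and 6.16e-05). In shRUNX1 cells FZD3 fell from 12.51, 11.60 and 12.30 to 11.29, 10.31 and 10.85 at 24 hr and was at 11.34, 10.59 and 11.36 at 72 hr. These changes were -1.32 and -1.04 ± 0.26 (adjusted p = 0.00107 and 0.00954). At 8 hr the change was -0.96 (adjusted p = 0.0166), a call lost without shRUNX1 replicate 1 or 3, and the 72 hr call ended without shRUNX1 replicate 3.

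LRP6, the coreceptor that WNT joins to Frizzled, read 11.96, 12.11 and 12.10 in shNS cells at 0 hr. It was at 11.24, 11.64 and 12.08 at 8 hr, 10.79, 10.76 and 11.22 at 24 hr, and 10.90, 10.63 and 11.15 at 72 hr. Its arrays at 24 and 72 hr were all below those at 0 hr, changes of -1.13 ± 0.20 and -1.16 ± 0.20 (adjusted p = 0.000244 and 0.000216). In shRUNX1 cells the fall was -0.96 at 24 hr and -0.69 at 72 hr (adjusted p = 0.00198 and 0.0261), the latter lost without any of the 3 shRUNX1 replicates. Its relative LRP5 was never called.

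FZD5, a Frizzled known from eye and yolk sac development in mice, went in shNS cells from 8.92, 8.59 and 8.36 at 0 hr to 7.71, 7.34 and 7.97 at 8 hr, 7.67, 7.77 and 7.51 at 24 hr and 7.85, 7.52 and 8.26 at 72 hr. Arrays of the 3 later times were all below those of 0 hr, with changes of -0.95, -0.97 and -0.75 ± 0.26 (adjusted p = 0.0151, 0.00677 and 0.0355). The 8 and 72 hr calls ended without shNS replicate 1 or 2 and the 24 hr call without replicate 1. The 72 hr call also ended without shRUNX1 replicate 3 and with quantile normalization. In shRUNX1 cells FZD5 was called at 24 hr alone (-1.03, adjusted p = 0.0069), a call lost without shRUNX1 replicate 2 or 3. FZD6 was called in shRUNX1 cells at 8 and 24 hr (-0.73 and -0.62, adjusted p = 0.00566 and 0.0112), the 8 hr call ending without its replicate 1 and the 24 hr call without its replicate 3. The 24 hr call of FZD6 also ended with quantile normalization, with median centring and in a fit of the compared groups alone. FZD1, FZD2, FZD4, FZD8, FZD9 and FZD10 were never called in any comparison, with group means that moved by at most 0.91 within a gene.

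FZD7, a Frizzled that hESCs are known to carry, fell in shNS cells and was 1 of 2 members called between the arms. It read 11.61, 11.74 and 12.10 in shNS cells at 0 hr, 10.61, 10.78 and 11.38 at 8 hr, 10.79, 10.37 and 10.83 at 24 hr, and 10.35, 9.99 and 10.88 at 72 hr. The shRUNX1 arrays read 12.26, 11.86 and 12.53, then 10.82, 11.29 and 11.28, then 11.55, 10.80 and 11.30, and finally 11.49, 11.11 and 11.80. Arrays of the arms overlapped at 0, 8 and 24 hr and were apart at 72 hr, where the lowest shRUNX1 array, 11.11, was above the highest shNS array, 10.88. The fall from 0 hr was -0.89, -1.15 and -1.41 ± 0.26 in shNS cells (adjusted p = 0.0233, 0.00199 and 0.000371). In shRUNX1 cells it was -1.09 at 8 hr, a fall of 1.999-fold at 24 hr, and -0.75 at 72 hr (adjusted p = 0.00731, 0.009 and 0.0561), and the last was not called there, though it was under 4 of 13 alternative settings (adjusted p from 0.0073 to 0.0363). The 8 hr calls ended without shNS replicate 1 or 2 in that arm and without shRUNX1 replicate 1 or 3 in the other, as did the shRUNX1 call at 24 hr without replicate 3.

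Of the 10 secreted inhibitors, the Frizzled-related genes SFRP1, SFRP2 and FRZB fell in both arms, and of the Dickkopf genes DKK1 rose in both arms and DKK2 and DKK3 in shNS cells. In shNS cells at 24 hr, 3 were called higher (DKK1, DKK2 and DKK3) and 4 lower (SFRP1, SFRP2, FRZB and WIF1). FRZB, a decoy that binds WNT through a Frizzled-like domain, had the steepest fall of the 46 genes. Its shNS arrays read 11.76, 11.69 and 11.20 at 0 hr, 9.72, 9.89 and 9.51 at 8 hr, 8.63, 7.98 and 7.23 at 24 hr, and 7.54, 7.36 and 7.95 at 72 hr. No array of a later time reached those of 0 hr, and the change grew from -1.85 ± 0.51 at 8 hr to -3.60 at 24 hr and -3.94 at 72 hr, 15.32-fold (adjusted p = 0.0151, 1.91e-05 and 8.66e-06). In shRUNX1 cells FRZB read 11.84, 10.76 and 11.40 at 0 hr, 9.77, 9.13 and 10.18 at 8 hr, 9.50, 7.27 and 8.87 at 24 hr, and 9.88, 7.93 and 9.48 at 72 hr. All later shRUNX1 arrays were again below the 0 hr arrays, and replicate 2 was the lowest at every time. Here the change was -1.64, -2.79 and -2.24 ± 0.51 (adjusted p = 0.033, 0.000528 and 0.00467). The 8 hr calls were the fragile ones, ending without any of the shNS replicates in shNS cells and in shRUNX1 cells without replicate 1 or 3 of that arm or replicate 1 or 2 of the control.

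SFRP1, another such decoy, read 13.30, 13.12 and 13.38 in shNS cells at 0 hr, 12.26, 12.30 and 12.94 at 8 hr, and 12.02, 11.50 and 11.55 at 24 hr. At 72 hr its arrays split, with 9.60 and 9.91 for replicates 1 and 2 and 12.27 for replicate 3. All arrays at 72 hr were still below those at 0 hr, a change of -2.68 ± 0.51 (adjusted p = 0.000449) that grew to -3.46 without replicate 3. At 24 hr the change was -1.58 (adjusted p = 0.0226), a call lost without shNS replicate 1 or 2. In shRUNX1 cells SFRP1 went from 14.15, 13.61 and 13.98 to 12.63, 11.27 and 11.86 at 24 hr and 12.96, 11.35 and 12.04 at 72 hr, changes of -1.99 and -1.80 (adjusted p = 0.00739 and 0.0195). Both of those calls ended without shRUNX1 replicate 2 or 3. SFRP2 also fell, from 15.16, 15.17 and 15.29 in shNS cells at 0 hr to 14.17, 13.68 and 13.77 at 24 hr and 14.34, 13.93 and 14.17 at 72 hr, with no overlap. Its change was -1.34 and -1.06 ± 0.32 in shNS cells (adjusted p = 0.00292 and 0.0152) and -1.16 and -1.22 in shRUNX1 cells (adjusted p = 0.0118 and 0.0122). The SFRP2 calls ended without shNS replicate 2 at 24 hr, without any of the shNS replicates at 72 hr, and, in the other arm, without shRUNX1 replicate 3.

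The Dickkopf genes DKK1 and DKK2 encode proteins that bind LRP5 and LRP6, and DKK3 is a divergent relative. DKK2 had the largest rise of the 46 genes, from 5.79, 5.95 and 5.67 in shNS cells at 0 hr to 7.18, 7.13 and 6.13 at 8 hr and 8.59, 8.63 and 6.98 at 24 hr. At 72 hr it was back to 6.67, 7.28 and 6.38. Every later shNS array was above every 0 hr array, with replicate 3 the lowest of its group at each time. The change was 2.27 ± 0.36 at 24 hr, 4.808-fold (adjusted p = 7.05e-05), and 0.98 at 72 hr (adjusted p = 0.0471), the latter a call that ended without shNS replicate 1 or 2 or any shRUNX1 replicate. In shRUNX1 cells DKK2 read 5.81, 5.63 and 5.59 at 0 hr, 6.17, 6.04 and 6.06 at 8 hr, 6.09, 6.80 and 7.09 at 24 hr and 5.76, 6.38 and 5.76 at 72 hr. Its change at 24 hr there was 0.99 (adjusted p = 0.0558) and was not called, but 7 of 13 alternative settings called it (adjusted p from 0.00323 to 0.0428).

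DKK1 rose in both arms, by 1.21 ± 0.36 at 24 hr in shNS cells (adjusted p = 0.0152) and by 1.29 at 24 hr and 1.28 at 72 hr in shRUNX1 cells (adjusted p = 0.0141 and 0.0203). Its shNS arrays overlapped, from 7.19, 6.66 and 5.55 at 0 hr to 8.07, 7.90 and 7.04 at 24 hr, with replicate 3 lowest throughout, while the shRUNX1 arrays went from 5.79, 5.58 and 5.64 to 7.07, 6.86 and 6.96 with no overlap. Each shRUNX1 call ended without any of that arm's replicates and the shNS call without its replicate 2. Under the methods' analysis of variance the shNS call and the shRUNX1 call at 72 hr also ended. The shNS call ended in a fit of the compared groups alone as well. DKK3 rose by 0.92 ± 0.15 at 24 hr and 0.60 at 72 hr in shNS cells (adjusted p = 7.84e-05 and 0.00409), and the 72 hr call ended without shNS replicate 2 or 3. WIF1, another protein that binds WNT, fell from between 6.44 and 6.62 at 8 hr to between 5.41 and 5.66 at 24 hr in shNS cells (-0.99 ± 0.10, adjusted p = 1.33e-05). Against 0 hr its 24 hr change was -0.67 (adjusted p = 2.49e-05), a call lost without shNS replicate 1 or 2. SFRP4, DKK4 and NOTUM, an enzyme that strips the lipid from WNT, were never called and stayed between 4.66 and 5.88 in all group means.

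In the R-spondin branch the receptors and the ligand fell in shNS cells. LGR4, an R-spondin receptor, dropped within 8 hr from 11.22, 11.42 and 10.89 to 9.84, 9.74 and 10.03, and read 10.55, 10.32 and 10.03 at 24 hr and 10.24, 10.14 and 10.88 at 72 hr. All later arrays were below those at 0 hr, though replicate 3 at 72 hr, at 10.88, was close to its own start at 10.89. The change was -1.31 ± 0.20, -0.88 and -0.76 (adjusted p = 0.000139, 0.00222 and 0.00712), the call at 72 hr ending without shNS replicate 1 or 2. In shRUNX1 cells LGR4 fell from 11.38, 11.14 and 11.22 to 9.95, 9.76 and 10.35 at 8 hr and 9.97, 10.00 and 10.07 at 24 hr, and was at 11.06, 10.75 and 11.40 at 72 hr. Those changes were -1.22 and -1.23 ± 0.20 (adjusted p = 0.000333 and 0.000216) at 8 and 24 hr, and the 72 hr arrays overlapped those at 0 hr (adjusted p = 0.626).

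LGR5, another R-spondin receptor and a marker of intestinal stem cells, read 7.40, 6.86 and 6.06 in shNS cells at 0 hr, 5.93, 5.82 and 5.37 at 24 hr, and 5.82, 5.63 and 5.98 at 72 hr. The later arrays were all below the 0 hr arrays, by -1.07 and -0.97 ± 0.34 (adjusted p = 0.0232 and 0.0405), calls that both ended without shNS replicate 1 or 2 and, at 72 hr, without shRUNX1 replicate 3. Both also ended under the methods' analysis of variance, and the 72 hr call under quantile normalization and in a fit of the compared groups alone. In shRUNX1 cells LGR5 read 6.31, 5.78 and 5.82 at 0 hr and 7.33, 5.58 and 6.86 at 72 hr, where replicate 2 was the low array, and the change of 0.62 was not called (adjusted p = 0.246). RSPO3, an R-spondin, fell in shNS cells from 7.13, 7.39 and 6.55 to 5.81, 5.69 and 5.72 at 72 hr (-1.28 ± 0.26, adjusted p = 0.000976), with no overlap. It moved by -0.44 in shRUNX1 cells (adjusted p = 0.296). RNF43, a ubiquitin ligase that removes Frizzled from the cell surface, rose in shRUNX1 cells from 5.92, 5.61 and 5.94 to 6.37, 6.51 and 6.84 at 72 hr (0.75 ± 0.17, adjusted p = 0.00449), a call lost without shRUNX1 replicate 3. Its relative ZNRF3 was never called.

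None of the 7 measured feedback genes, targets and factors was called in shNS cells at any time by limma (1 of 7 at an unadjusted p under 0.05 at 8, 24 and 72 hr, and 0 by the methods' test). Of these 7, AXIN2, TCF7L2 and SP5 rose in shRUNX1 cells at 72 hr. AXIN2, a scaffold of the complex that degrades beta-catenin and a widely used WNT target, read 6.63, 7.05 and 6.76 in shRUNX1 cells at 0 hr, 6.81, 6.77 and 6.92 at 8 hr, 7.66, 6.99 and 7.46 at 24 hr and 8.30, 8.02 and 7.51 at 72 hr. The 72 hr arrays were all above the 0 hr arrays, by 1.13 ± 0.32 (adjusted p = 0.0199), but the call ended without any of the 3 shRUNX1 replicates. In shNS cells AXIN2 started at 7.80, 7.71 and 6.89 and ended at 8.62, 8.00 and 7.22, a change of 0.48 with overlapping arrays (adjusted p = 0.301). At 72 hr the means were 7.95 in shNS cells and 7.94 in shRUNX1 cells, and at 0 hr 7.47 and 6.81, a difference that was not called.

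SP5, whose upstream stretch is printed above, moved likewise at low signal. Its group means, 4.75 to 5.89, were all under 6.25, the median of the tested values. It read 4.68, 4.86 and 4.72 in shRUNX1 cells at 0 hr and 6.09, 5.61 and 5.98 at 72 hr, all arrays apart, a change of 1.14 ± 0.18 (adjusted p = 0.000298). In shNS cells the arrays were at 5.56, 5.65 and 4.98 at 0 hr and 6.11, 5.63 and 5.41 at 72 hr and overlapped (0.32, adjusted p = 0.209). The change of SP5 in shRUNX1 cells exceeded that in shNS cells by 0.81 ± 0.26, which missed the threshold (adjusted p = 0.161). LEF1, a DNA-binding partner of beta-catenin, moved by 0.97 ± 0.34 in shRUNX1 cells at 72 hr (adjusted p = 0.0583) and by -0.16 in shNS cells. The rise in shRUNX1 cells was called under 7 of 13 alternative settings (adjusted p from 0.000625 to 0.0452), and the difference of these changes was not called (1.13 ± 0.48, adjusted p = 0.294). TCF7L1, a family member known mostly as a repressor in mouse embryonic stem cells, moved by -0.52 at 24 hr in shNS cells and -0.50 in shRUNX1 cells (adjusted p = 0.016 and 0.0282), short of 1.5-fold. NKD1 and NKD2, which bind the signal carrier Dishevelled, were never called.

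TCF7L2 was the second gene called between the arms. Its shNS arrays read 8.92, 8.60 and 8.94 at 0 hr, 9.10, 9.27 and 9.12 at 8 hr, 8.96, 8.72 and 9.09 at 24 hr, and 8.96, 8.71 and 9.22 at 72 hr. The shRUNX1 arrays read 8.65, 9.36 and 8.66, then 9.19, 9.30 and 9.16, then 9.56, 9.02 and 9.16, and at 72 hr 9.79, 9.52 and 9.62. Arms overlapped until 24 hr and were apart at 72 hr, with the lowest shRUNX1 array above the highest shNS array. Within shRUNX1 cells the rise to 72 hr was 0.76 ± 0.18 (adjusted p = 0.00616), although replicate 2 had started high at 9.36, and the call ended without shRUNX1 replicate 1 or 3.

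Compared directly at each time, no WNT gene was called between arms before 72 hr. At 0 hr limma called 0 of 46 (against 1% of all tested clusters), with 9 at an unadjusted p under 0.05 and 0 by the methods' test. At 8 hr it called 0 (against 0.00421%), with 1 and 0 in the same order, and at 24 hr 0 (against 0.114%), with 7 and 0. At 72 hr it called FZD7 and TCF7L2, both higher in shRUNX1 cells (4.35% of the 46, against 1.6% of all tested clusters in either direction and 0.458% higher). Shares of all clusters at an unadjusted p under 0.05 were not computed for these comparisons.

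**Figure D3:**
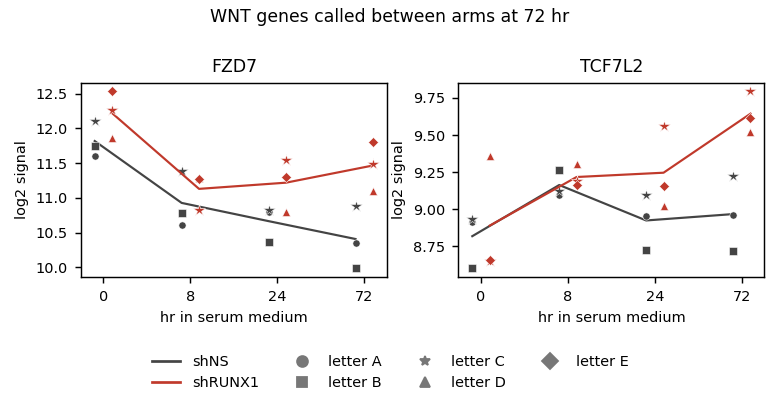
Signal of FZD7 and TCF7L2, the WNT genes called between arms at 72 hr, on every array. The x axis is hr in serum medium, the y axis log2 signal, lines join means of 3 arrays and shapes give the experiment letters. At 72 hr the 3 shRUNX1 arrays of FZD7 sit between 11.11 and 11.80 and those of TCF7L2 between 9.52 and 9.79, above all shNS arrays.

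FZD7 was higher by 1.06 ± 0.26 (2.08-fold, adjusted p = 0.0385) and TCF7L2 by 0.68 ± 0.18 (1.599-fold, adjusted p = 0.0455), each in 3 of 3 against 3 of 3 arrays, and an exact permutation test of 3 arrays against 3 (two-sided) cannot go below p = 0.1, the value both reached. Between the 2 arrays with letter C the differences were 0.60 and 0.57. With the letter as a block they were 0.73 and 0.60 (adjusted p = 0.0711 and 0.106), and in a fit of the 72 hr arrays alone both had an adjusted p of 0.239, so neither call held in these fits. The letter block joins the arms through the letter C arrays alone. Leaving out replicate 1 or 3 of the knockdown or replicate 1 or 2 of the control also ended both calls, with adjusted p from 0.148 to 0.32 for FZD7 and from 0.173 to 0.324 for TCF7L2.

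At 72 hr several genes that had fallen in shNS cells read higher in shRUNX1 cells without passing the test. The difference was 0.69 ± 0.20 for LRP6 (adjusted p = 0.0692), 0.65 ± 0.20 for LGR4 (0.0774), 0.81 ± 0.26 for FZD5 (0.0838), 1.52 ± 0.51 for SFRP1 (0.0948) and 1.48 ± 0.51 for FRZB (0.101). LRP6 was the sole member of these 5 whose arrays did not overlap. Some settings called them: LRP6 (adjusted p = 0.0435) and LGR4 (0.0491) with dim clusters left out, and LRP6 (0.0139), FZD5 (0.0458) and FRZB (0.0438) with the title number as a block. FRZB was also called with the letter as a block, at 2.295, a fit in which only the letter C arrays join the arms. Over all 46 genes the difference was positive in 37, with a median of 0.19 against 0.02 over all tested clusters. Arrays were apart and higher in shRUNX1 cells for 10 of the 46 genes, against 11.6% of all clusters, and lower for DKK2 alone, against 9.38%. Among the 12 receptors 11 differences were positive. The share of positive differences over all tested clusters was not computed. Without shRUNX1 replicate 2, 10 genes were called at 72 hr, and without shNS replicate 3, 8. Not all were higher: WNT3 was called lower in both settings (-0.87 and -0.79) and DKK2 lower without shNS replicate 3 (-1.01). Without either of these replicates the count was above 0 at 0 and 24 hr too, 5 and 3 without shNS replicate 3 and 2 and 1 without shRUNX1 replicate 2, and DKK2 was called at 8 hr without shNS replicate 3. The share of all tested clusters called in these fits was not computed.

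**Figure D4:**
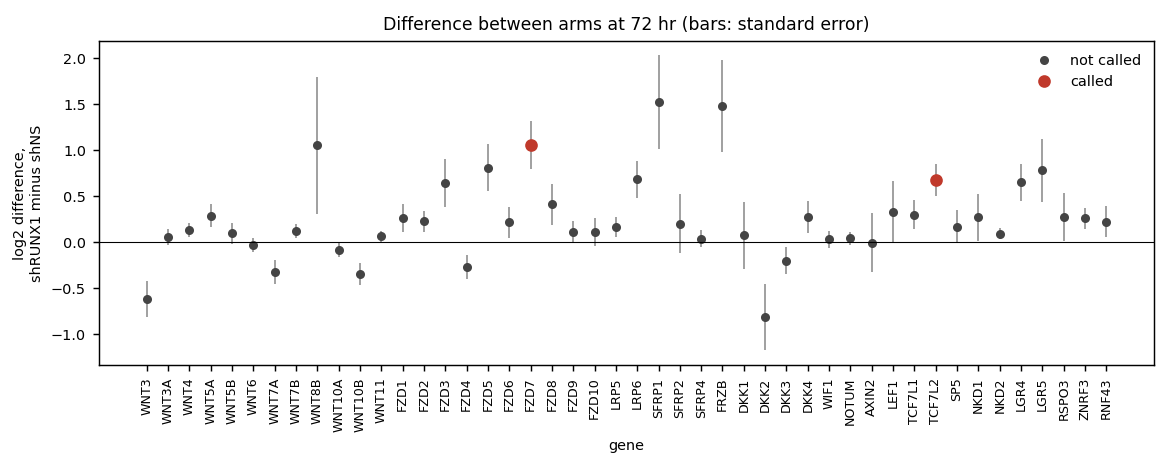
Difference between arms at 72 hr for the 46 WNT genes. The y axis is the log2 difference, shRUNX1 minus shNS, between means of 3 arrays, bars are standard errors from limma and red points are called. FZD7 and TCF7L2 are red, while SFRP1 and FRZB, at 1.52 and 1.48, have larger differences and wider bars.

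The change of the arm difference from 0 hr, which tests whether the arms took different courses, was called in 0 of 46 genes at 8, 24 and 72 hr (against 0.00421%, 0% and 0.00421% of all tested clusters). By unadjusted p under 0.05 there were 1, 4 and 12, and the methods' test gave 0. The share of all tested clusters under that unadjusted p was not computed. At 72 hr LGR5 and SP5 had the smallest adjusted p, with 1.58 ± 0.49 (0.157) and 0.81 ± 0.26 (0.161). Without shRUNX1 replicate 2, the low array for several genes, 4 genes were called: FRZB (1.99, adjusted p = 0.0199), TCF7L2 (0.90, 0.0278), SP5 (1.01, 0.0382) and LGR5 (1.99, 0.0152). In these 4 that replicate had the lowest change from 0 hr of its arm, so leaving it out raised the difference, and these calls are no test of it.

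Single replicates stood apart in several genes. The shNS array of replicate 3, letter C, was the lowest of its group at all 4 times in 10 of the 46 genes (21.7%), against 6.39% of all tested clusters. These were WNT3A, WNT5A, FZD1, DKK1, DKK2, AXIN2, LEF1, SP5, NKD1 and RNF43. The same array was the highest throughout in 3 genes, FZD7, LRP5 and TCF7L1 (6.52%, against 5.08%). Replicates 1 and 2 were lowest throughout in 0 genes (against 1.82% and 1.32%). LEF1, for example, read 7.56, 7.67 and 6.65 in shNS cells at 0 hr and 6.73, 6.45 and 6.31 in shRUNX1 cells, so the letter C array of the control lay inside the range of the knockdown. NKD1 read 7.41, 7.77 and 6.91 against 6.76, 6.95 and 6.87, and again the third control array overlapped with the other arm. In shRUNX1 cells, replicate 2 was lowest throughout in 5 genes (10.9%, against 3.43%), namely WNT8B, FZD3, FRZB, DKK1 and DKK4. This pattern was noticed in the values and is given as a description.

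**Figure D5:**
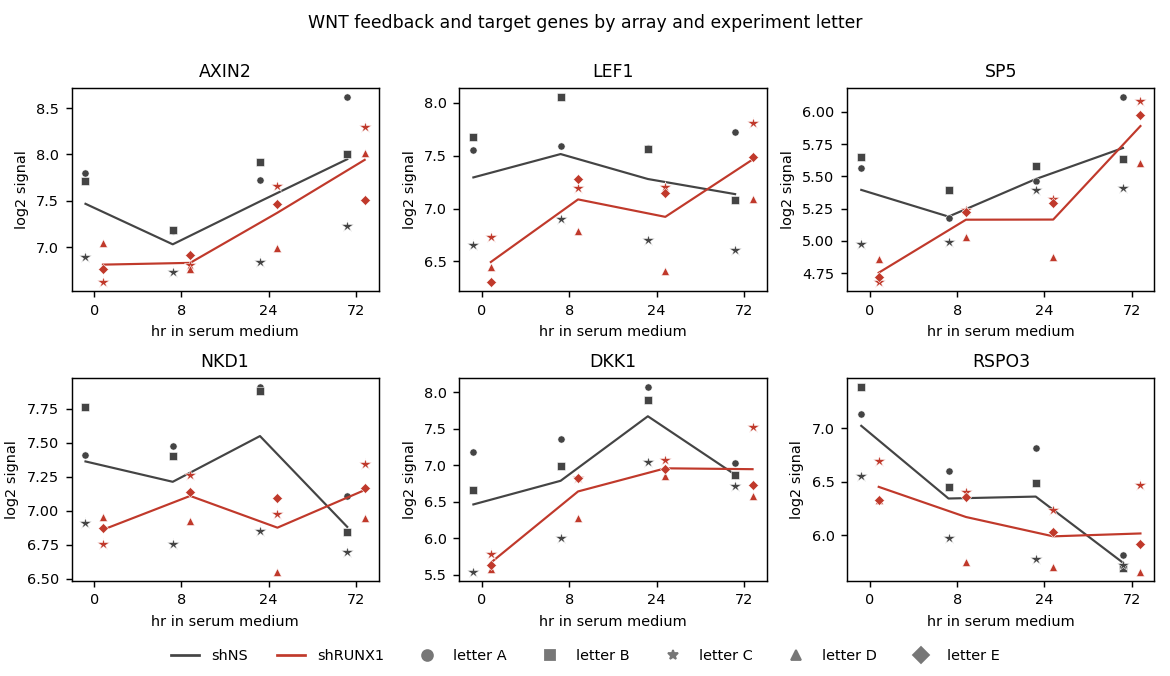
Signal of AXIN2, LEF1, SP5, NKD1, DKK1 and RSPO3 on every array. The x axis is hr in serum medium, the y axis log2 signal, lines join means of 3 arrays and shapes give the experiment letters. The grey star, shNS letter C, lies under the other grey points at nearly every time, and at 0 hr it reads 6.89 for AXIN2 against 7.80 and 7.71.

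At 0 hr AXIN2, LEF1, NKD1 and DKK1 were called between arms only where shNS replicate 3 was left out, and SP5 under 4 alternative settings. Between arms at 0 hr, SP5 differed by -0.64 ± 0.18 (adjusted p = 0.0602), AXIN2 by -0.66 ± 0.32 (0.246), LEF1 by -0.80 ± 0.34 (0.185), NKD1 by -0.50 ± 0.25 (0.265) and DKK1 by -0.80 ± 0.36 (0.215). Without shNS replicate 3 these 5 were called lower in shRUNX1 cells, at -0.85, -0.94, -1.12, -0.73 and -1.26 (adjusted p = 0.00779, 0.0238, 0.0219, 0.0176 and 0.00754). That array was the lowest control array in all 5, so leaving it out had to widen the differences, and these calls are no test of them. Between the letter C arrays alone the differences were -0.30 for SP5, -0.26 for AXIN2, 0.08 for LEF1, -0.15 for NKD1 and 0.25 for DKK1. DKK2, for which that array was also the lowest control, was at -1.40 ± 0.36 at 24 hr with all arrays (adjusted p = 0.0906). It was at -1.95 without shNS replicate 3 (adjusted p = 0.000219) and -0.89 between the letter C arrays. Letters A and B hold shNS arrays alone and D and E shRUNX1 arrays alone, so for those the letter and the arm cannot be told apart.

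Of 55 other WNT pathway genes, 54 were measured. In shNS cells 8 rose and 6 fell at 8 hr (against 4.68% and 3.73% of all tested clusters), 11 rose and 8 fell at 24 hr (7.72% and 7.94%), and 9 rose and 8 fell at 72 hr (7.3% and 7.77%). In shRUNX1 cells 6 rose and 3 fell at 8 hr (3.84% and 3.17%), 8 rose and 3 fell at 24 hr (5.25% and 5.7%), and 7 rose and 2 fell at 72 hr (3.76% and 3.76%). BAMBI, a decoy receptor for TGF-beta family ligands and a WNT target, rose by 3.53 ± 0.41 at 24 hr in shNS cells and by 2.95 in shRUNX1 cells (adjusted p = 2.39e-06 and 4.12e-05). PRICKLE2, of the planar polarity branch, rose by 3.09 ± 0.31 and 2.17 (adjusted p = 6.16e-07 and 6.25e-05), and DACT1, a Dishevelled-binding protein, by 2.78 and 2.57 ± 0.40 (adjusted p = 2.5e-05 and 0.000139). CCND1, a cell cycle gene and WNT target, rose by 2.29 ± 0.28 and 1.89 (adjusted p = 3.85e-06 and 7.41e-05). Of the genes that fell, ROR1, a receptor for WNT5A, was lower by -1.99 ± 0.31 and -1.59 (adjusted p = 5.22e-05 and 0.000916). APC, of the complex that degrades beta-catenin, was lower by -1.13 ± 0.17 and -0.68 (adjusted p = 3.21e-05 and 0.00591). Between arms, WNT8A was called at 72 hr, higher in shRUNX1 cells by 1.15 ± 0.27 (adjusted p = 0.0313), and it was the sole call over the 4 times. That is 1 of 54 at 72 hr, against 1.6% of all tested clusters in either direction and 0.458% higher. Its shRUNX1 arrays were uneven, at 6.36 ± 0.88 (SD) against 5.22 ± 0.06 in shNS cells. The call was not put through the alternative settings.

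Markers of other cell types moved beside these genes. Neuroectoderm markers, of which 7 of 7 were measured, had a summed log2 level of 12.24 to 13.26 in shNS cells at 0 hr and 9.68 to 11.38 at 72 hr. There 5 of 7 were called lower (SOX1, FEZF1, OTX2, LHX2 and ZIC1), against 7.77% of all tested clusters. Group means of SOX1 and ZIC1 were under 6.25, the median of the tested values, throughout. In shRUNX1 cells the sum was 11.36 to 12.74 at 0 hr and 11.09 to 13.18 at 72 hr, with 0 of 7 called at 72 hr (against 7.52% in either direction). In between the shRUNX1 sum was lower, 10.43 to 11.10 at 8 hr and 9.77 to 11.73 at 24 hr. FEZF1 alone was called lower at those times (against 3.17% and 5.7% of all tested clusters). The shNS sums there were 10.39 to 11.17 and 10.21 to 11.53. FEZF1 was called higher than in shNS cells at 72 hr (against 0.458% of all tested clusters). Mesenchymal markers, 8 of 8 measured, summed to 15.30 to 15.76 in shNS cells at 72 hr and 14.03 to 15.21 in shRUNX1 cells. Of these, 5 of 8 were called lower in shRUNX1 cells, against 1.6% of all tested clusters called in either direction. Their part in the falls of WNT8B, FZD3 and FRZB and in the arm differences of FZD7 and TCF7L2 was not tested.

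Of the 72 calls of single genes, 13 held under each of 13 alternative settings. They were LGR4 at 8 hr, WNT3, FZD3, FZD7, LRP6, FRZB and DKK3 at 24 hr and WNT3, FZD3, LRP6, FRZB and RSPO3 at 72 hr in shNS cells, and LGR4 at 24 hr in shRUNX1 cells. The 23 genes never called include 11 whose means stayed under the median of all tested values, 6.25, in every group. The called genes WNT7A and SP5 were also under it in every group. Group means within any of these 23 moved by 0.07 to 1.02 on the log2 scale.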

How the data were processed

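Total RNA of 24 H9 cultures was hybridised to Affymetrix arrays. The authors normalized the arrays with RMA in Affymetrix Expression Console, after leveling GC content and transforming the signal space to lower the background, and analysed them in Transcriptome Analysis Console 1.0.0.234. The deposited values are log2 signals in 70523 rows, of which 67528 are transcript clusters, and a genome build for them is not given in the sources used here. That transformation was applied to counter compressed fold changes, so sizes of change depend on it, and only differences within a cluster are compared. Of the clusters, 25324 carried a gene symbol in the platform annotation, 23781 a single symbol, 1105 a pair and 438 more.

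Groups came from the sample labels. A linear model with 8 group means (16 residual degrees of freedom) was fitted with limma 3.58.1 in R 4.3.3, with moderated variances and an intensity trend. A call needed a fold over 1.5 and a p, adjusted over the 23781 clusters by Benjamini-Hochberg, under 0.05. Counts at an unadjusted p under 0.05 were made for the WNT genes alone and have no share of all clusters beside them. The scripts were tested on simulated data. Errors are standard errors from this fit, or SD where stated, and 3 arrays per group limit the precision.

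Values per array are given for genes called between arms and for up to 4 genes per role with the largest called change in shNS cells. WNT5A, DKK1, AXIN2, SP5, LEF1, NKD1, WIF1 and RNF43 were added after their values were seen. The genes and the lists (55 other WNT pathway genes and markers of pluripotent, mesendoderm, neuroectoderm, amnion and trophoblast and mesenchymal cells) were chosen with earlier results of these data known. Summed marker levels are log2 of the sum of linear signals. Results were recomputed with quantile normalization, with arrays centred on their medians, without clusters below the median in every group, with the methods' analysis of variance, blocks by title number or experiment letter, a fit of the compared groups alone, and each replicate left out in turn.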

Additional observations from a re-analysis of the deposited data

How the results depend on the processing

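No call of a WNT gene changed direction under any of the 13 alternatives, and of 72 calls 68 held with quantile normalization, 70 with median centring, 60 in a fit of the compared groups alone, 22 under the methods' analysis of variance and 42 to 65 when a replicate was left out. Under the methods' analysis of variance the counts were 3, 10 and 6 in shNS cells at 8, 24 and 72 hr, 0 from 8 to 24 hr, 1, 2 and 0 in shRUNX1 cells, and 0 between arms at 72 hr. In a fit of the compared groups alone they were 3 from 8 to 24 hr in shNS cells, 10 in shRUNX1 cells at 8 hr and 0 between arms at 72 hr. Median centring gave 1 call between arms at 0 hr (SP5) and 1 at 72 hr, and leaving out dim clusters gave 4 at 72 hr, with LRP6 and LGR4 added. Leaving out a replicate gave 1 to 8, 11 to 16 and 8 to 16 calls in shNS cells at 8, 24 and 72 hr, 1 to 5 from 8 to 24 hr and 0 to 3 from 24 to 72 hr. In shRUNX1 cells it gave 3 to 8, 4 to 12 and 3 to 14, between arms 0 to 5, 0 to 1, 0 to 3 and 0 to 10 at 0, 8, 24 and 72 hr, and for the change of the arm difference 0 to 4 at 72 hr. A group left with 2 arrays takes its spread from all groups. Shares of all tested clusters were not computed for the alternative settings, so their counts stand without one.

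Within an arm, arrays with the same title number tended to deviate from their group means together, which the main fit did not model. Deviations of arrays with the same arm and number correlated at -0.09 to 0.527 (median 0.158, 22 of 36 pairs over 0.1), against a median of -0.11 for the same arm and another number (8 of 72 over 0.1), and in 50 of 72 comparisons an array correlated best with its own number. With the replicate block by title number the calls were 1 from 24 to 72 hr in shNS cells (DKK2) and 1 (SP5), 1 (DKK2) and 5 between arms at 0, 24 and 72 hr, the last with LRP6, FZD5 and FRZB added. With the replicate block by experiment letter they were 10 in shNS cells at 8 hr, 4 from 24 to 72 hr (DKK1, DKK2, NKD1 and RSPO3, all lower) and 6 between arms at 72 hr (FZD3, FRZB, DKK1, LEF1, NKD1 and RSPO3). In that fit only the letter C arrays join the arms, so the level of the arm differences rests on them.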
